A study of Mus musculus with 180 samples.

Results

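The mitochondrial respiratory chain and ATP synthase are built from subunits encoded in 2 genomes, and the nuclear-encoded subunits were followed here through 15 tissues of mice with endotoxemia. Members were all rows of the deposited expression table whose symbol begins with Nduf followed by a, b, c, s or v and a digit, is Sdha to Sdhd, or begins with Uqcr, Cox4 to Cox8 or Atp5. The rule took 83 of the 13820 genes measured. Of these, 39 carried complex I symbols, 4 belonged to complex II, 8 to complex III, 15 to complex IV and 17 to complex V. Some members need a qualification. Ndufa4 is placed with complex I by its symbol but is now counted as a complex IV subunit. Ndufb4c is annotated as a processed pseudogene and Ndufb1-ps as a non-coding RNA, so their tags may share reads with near-identical genes. Atp5s and Cox7a2l are not structural subunits, since Atp5s encodes a factor associated with ATP synthase and Cox7a2l a factor that joins complexes III and IV. Atp5o.1 was matched to 2 annotated entries, so no single position was given. Cox6b2, Cox8c and Ndufb4b were not analysed here.

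RNA was profiled by sequencing tags from the 3′ end of polyadenylated transcripts in 180 libraries, 1 for each tissue of each of 12 female mice aged 6 weeks. Tissues were collected 12 h after the PBS or LPS dose, from perfused mice. Mice 1 to 4 were C57BL/6J animals given PBS, mice 5 to 8 were C57BL/6J animals given 5 mg/kg lipopolysaccharide (LPS, a bacterial cell wall component that sets off innate immunity), and the same LPS dose went to mice 9 to 12, of strain B6.129S-Tnftm1Gkl/J, which carries a targeted Tnf allele. The last group is called TNFKO LPS. TNFKO mice without LPS were not among the groups. What the strain or allele does by itself and what it does to the LPS response therefore cannot be told apart.

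Complexes I to IV pass electrons from NADH and succinate to oxygen. Complexes I, III and IV pump protons across the inner mitochondrial membrane, and complex V uses the resulting gradient to make ATP. Complex I takes electrons from NADH, complex II is also the succinate dehydrogenase of the tricarboxylic acid cycle, complex III passes electrons to cytochrome c, and complex IV reduces oxygen. Heart, brown fat, skeletal muscle and kidney tubules are known for dense mitochondria. Several complex IV subunits and the c subunit of ATP synthase come from more than 1 gene, and some of these genes, such as Cox6a2, Cox7a1 and Cox8b, are muscle or brown fat isoforms. Transcription factors of the NRF1, ETS (NRF2/GABP) and ERR families, with the coactivator PGC-1α, are known to act on many of these promoters.

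Upstream sequences are shown because members moved together in several tissues. RefSeq promoters (GRCm38.p6) were found for 63 of the 83 members, and the 250 bases upstream of the start were searched on both strands. The NRF1-type palindrome was found in 12 of 63 members (19.05%), against 3.863% of all 27025 promoters and 7.304% of the 10309 promoters of measured genes. An ETS-type site (CCGGAAG) was found in 11 members (17.46%, against 7.053% and 11.88%). An ERR-type site (AAGGTCA) was found in 5 members (7.937%, against 4.052% and 3.162%). A GC box (GGGCGG) was found in 21 members, or 33.33%, against 32.94% of all promoters and 55.4% of those of measured genes. These shares describe the letters in a fixed window and were not tested. The sequences run 5′ to 3′ on the gene's strand and end before the RefSeq start, or before the GENCODE gene start where that lies further upstream, so some are shorter than the window searched. Capitals mark matches to the first 3 motifs. Cox6a1, the widely expressed isoform of a complex IV subunit, held 2 NRF1-type sites, and the ETS-type site counted for it lies in its window but outside the stretch shown. Ndufs5, a complex I subunit, held 1 NRF1-type site and 1 ERR-type site, and Sdhd, a membrane anchor of complex II, held 1 NRF1-type and 1 ETS-type site. Ndufb10, the complex I subunit that was lower after LPS in the most tissues, and Cox7a1, the muscle isoform, held none in the stretch shown.
Cox6a1 (chr5:115348982-115349208, minus strand): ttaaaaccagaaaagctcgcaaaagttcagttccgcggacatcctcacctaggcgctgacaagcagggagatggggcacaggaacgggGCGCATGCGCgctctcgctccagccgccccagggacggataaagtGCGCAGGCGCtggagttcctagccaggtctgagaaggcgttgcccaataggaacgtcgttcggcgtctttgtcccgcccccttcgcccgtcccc
Ndufs5 (chr4:123718203-123718436, minus strand): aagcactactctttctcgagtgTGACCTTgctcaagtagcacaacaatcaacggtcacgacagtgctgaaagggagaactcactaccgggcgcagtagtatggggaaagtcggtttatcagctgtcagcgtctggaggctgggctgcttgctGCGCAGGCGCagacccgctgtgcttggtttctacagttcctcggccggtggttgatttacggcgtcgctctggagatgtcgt
Sdhd (chr9:50603850-50604099, minus strand): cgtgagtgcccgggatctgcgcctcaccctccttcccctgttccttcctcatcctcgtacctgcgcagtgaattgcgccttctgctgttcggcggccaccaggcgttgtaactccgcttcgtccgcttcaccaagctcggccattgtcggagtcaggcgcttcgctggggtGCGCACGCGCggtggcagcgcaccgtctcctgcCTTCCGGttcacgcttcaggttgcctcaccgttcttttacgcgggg
Ndufb10 (chr17:24724479-24724673, minus strand): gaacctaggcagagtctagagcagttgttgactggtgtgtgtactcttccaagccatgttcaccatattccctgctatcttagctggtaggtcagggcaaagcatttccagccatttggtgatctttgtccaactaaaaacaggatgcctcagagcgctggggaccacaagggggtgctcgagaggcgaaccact
Cox7a1 (chr7:30183921-30184143, plus strand): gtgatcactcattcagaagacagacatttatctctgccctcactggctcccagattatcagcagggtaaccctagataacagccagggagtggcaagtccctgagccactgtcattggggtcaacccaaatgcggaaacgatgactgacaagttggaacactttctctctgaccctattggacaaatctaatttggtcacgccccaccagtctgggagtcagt

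Values are given as the deposited signal, a scaled tag count named for CPM whose sum per library ran from 703690 to 1603067. Whole counts recovered from it summed to 311128 to 2573806 per library, and 1 count stood for a signal of 0.322 to 3.6. Each transcript gives tags from its 3′ end, so signals of different genes were compared without a length correction. Markers of the labelled tissue were higher in all its PBS libraries than in any other tissue for 12 of 15 tissues. In the other 3 the overlapping or higher tissue was brown fat for the adipocyte markers of white fat, spleen for the B cell markers of the lymph node, and small intestine for the enterocyte markers of the colon. The Tnf tag was higher in TNFKO LPS than in LPS libraries. In kidney it read 31.6, 27.1, 28.4 and 26.7 in TNFKO LPS mice against 6.67, 7.69, 8.07 and 7.39 in LPS mice. The labels do not give the deleted part of Tnf, so this 3′ tag does not check the genotype.

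In PBS mice the summed signal of the 83 members was highest in heart, at 99097 to 104883 over 4 libraries, which was 7.52% of the library signal. Brown fat (71684 to 96156) and muscle (62567 to 78727) came next and overlapped each other. Kidney followed at 40367 to 43928, and its libraries lay below all of those 3 and above all others. Liver (27482 to 31443) and small intestine (25978 to 30854) overlapped. Colon and white fat overlapped each other as well, and brain at 15933 to 17600 stood below both. From skin down through thymus, lung, inguinal lymph node and bone marrow to spleen, each tissue overlapped the next. Spleen was lowest by mean, at 10883 to 11579, and the heart mean was 9.03 times the spleen mean. Library sums differed between tissues, and by share of the library signal part of this order changed. Heart, brown fat (6.90%), muscle (5.06%) and kidney (4.21%) remained the top 4, but liver (1.87%) came after colon (2.72%), small intestine (2.51%), white fat (2.38%) and brain (2.02%), and bone marrow (1.08%) was below spleen (1.43%). By group mean, 51 members had their highest PBS level in heart and 30 in brown fat. The other 2 were Cox4i2, highest in lung, and Ndufa4l2, highest in skin.

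**Figure D1:**
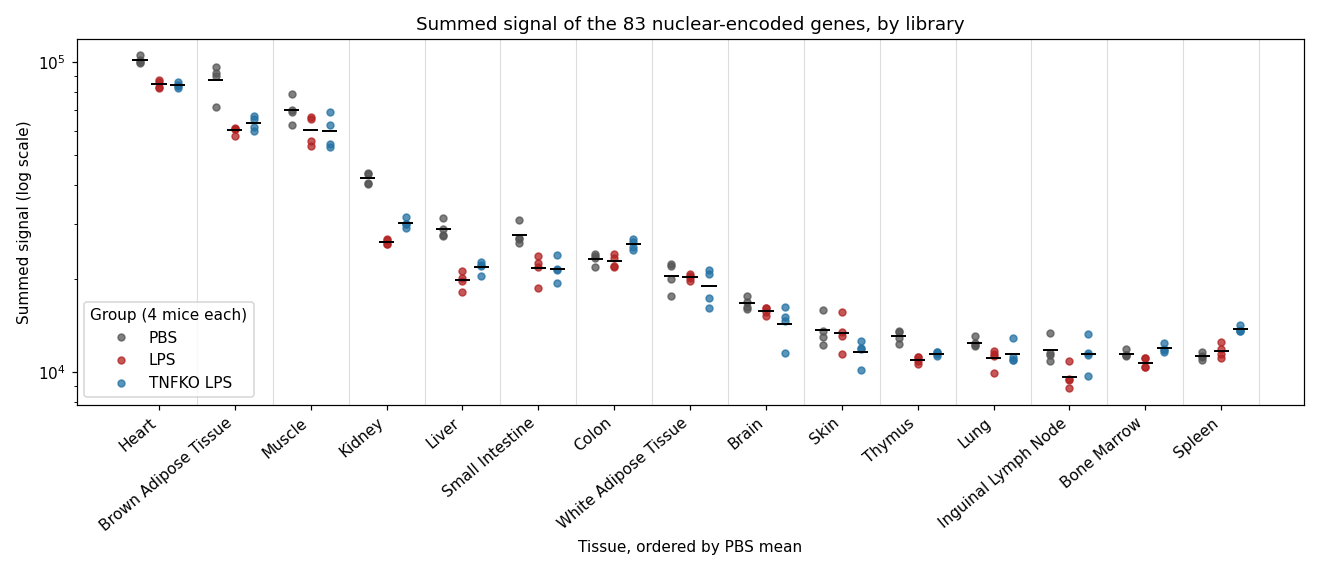
Summed signal of the 83 genes on a log axis, by tissue in the order of the PBS mean; each point is 1 library (PBS grey, LPS red, TNFKO LPS blue, 4 mice each) and the black line is the group mean. The 4 kidney libraries of LPS mice (25903 to 26770) lie below all kidney libraries of both other groups.

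Isoform shares were read next, without a test, as the part of a set of alternative genes that each gene made up. Cox6a2, the heart and muscle isoform of a complex IV subunit, made up 90.3 to 91.6% of Cox6a1 plus Cox6a2 signal in PBS hearts and 91.3 to 92.7% in muscle, but 1.14 to 1.45% in brown fat. In brown fat the partner Cox6a1 was at its highest mean of all tissues, 4176. Cox8b, another muscle-type isoform, made up 77.2 to 80.7% of Cox8a plus Cox8b in heart, 82.6 to 87.7% in muscle and 53.4 to 60.4% in brown fat. Cox7a1 made up 58.6 to 60.8% of its set, Cox7a1 plus Cox7a2 plus Cox7a2l, in heart, 48.8 to 51.3% in muscle and 50.2 to 51.4% in brown fat. Cox7a2l is not a structural subunit, and its signal lowers these shares. The mean Cox7a1 share was also 24.5% in small intestine, where the other isoform genes of muscle were low.

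Brown fat differed from heart in ATP synthase genes. Atp5g1, 1 of 3 genes for the c subunit of the rotor ring, read 93.7, 106, 90.7 and 153 in PBS brown fat, with the lowest mean of all 15 tissues, against 2724, 2614, 2592 and 2701 in heart. Atp5b, the catalytic beta subunit, was at 2072, 2548, 2711 and 2564 in the same brown fat libraries, its highest mean. The ratio of summed complex V to complex I signal was 0.645 to 0.664 in PBS brown fat and 0.994 to 1.01 in heart, and the groups did not overlap. A low content of assembled ATP synthase is a known feature of brown fat mitochondria.

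**Figure D2:**
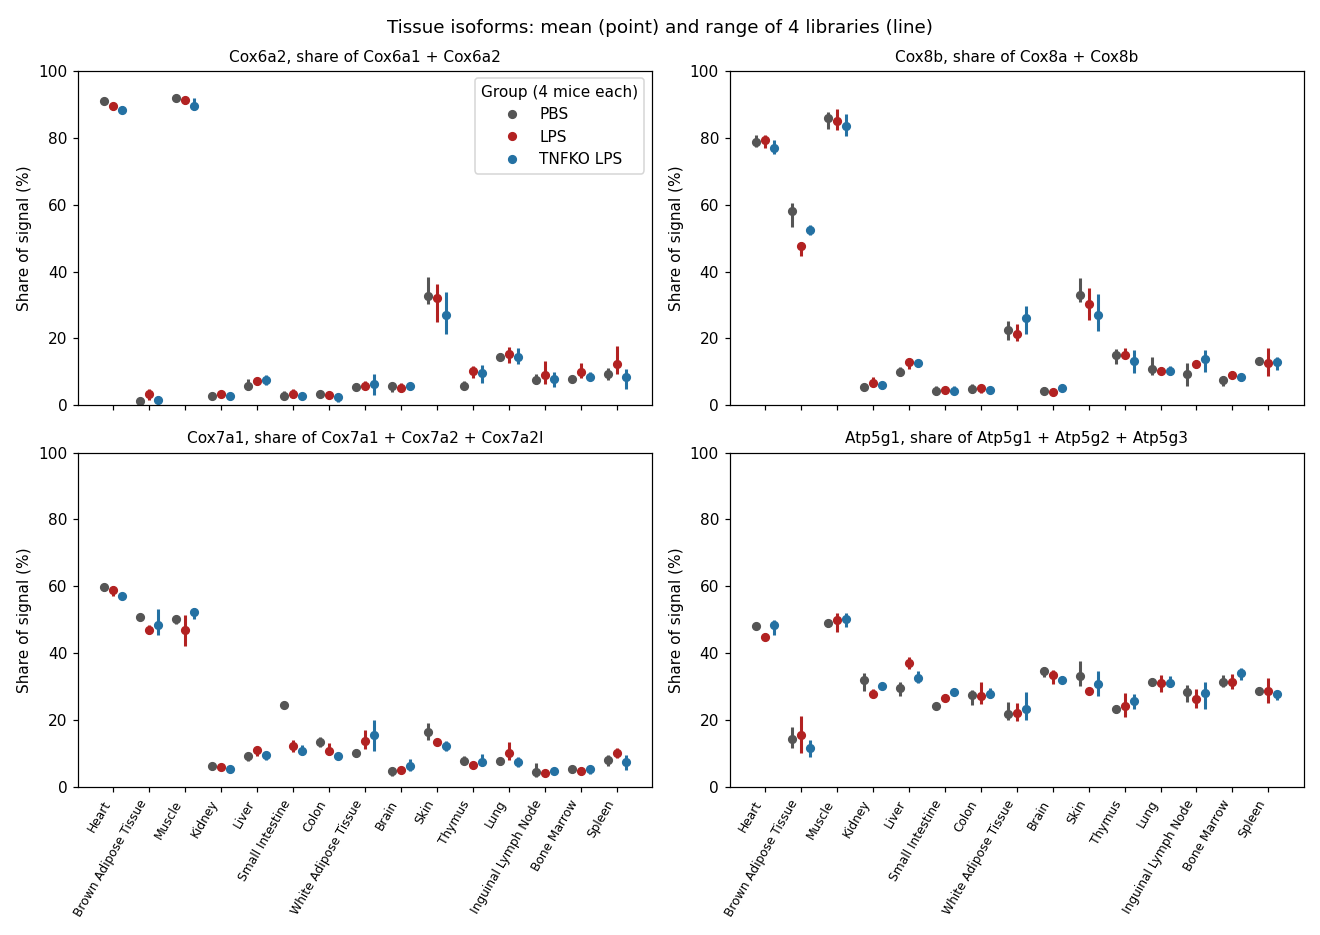
Share of signal (%) taken by Cox6a2, Cox8b, Cox7a1 and Atp5g1 within their isoform sets, by tissue; points are group means and lines the range of 4 libraries. Cox6a2 dominates in heart and muscle but not in brown fat, and the Cox8b share of brown fat was 53.4 to 60.4% in PBS and 44.6 to 48.8% in LPS mice.

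LPS mice were compared with PBS mice in each tissue to ask how endotoxin changed these genes. Over 1240 tests of a member in a tissue, 427 were lower after LPS and 15 higher at an adjusted p below 0.05 (limma, Benjamini-Hochberg over all genes of the tissue), and 14 tissues had at least 1 call. Brain had none. Ndufb10, an accessory subunit in the membrane arm of complex I, was lower in 11 tissues and Ndufv3, a small subunit of its NADH-oxidising part, in 10. Atp5j2, Atp5k, Ndufb3, Ndufc1 and Uqcr11, small membrane subunits of complexes V, I and III, were lower in 9 each. The median member was lower in 5 tissues, and 48 members were lower in 5 or more. Atp5s was lower in none. The number of tissues in which a gene was lower was not counted for all genes. In these bulk samples, fewer cells of a type and less RNA per cell cannot be told apart.

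The kidney carried the widest change. After LPS 80 of 82 members tested were lower and none higher, where 21.9% of all genes tested were lower and 16.2% higher, and the member median was -0.69 on the log2 scale against -0.05 for all genes. All 39 complex I genes, all 4 of complex II and all 8 of complex III fell, with 13 of 14 in complex IV and 16 of 17 in complex V. Cox6a2 (-0.01) and Atp5s (-0.47) did not pass, and Cox4i2 was too low to test. The summed signal was 40367, 43928, 43567 and 40751 in PBS mice and 25949, 25903, 26770 and 26576 in LPS mice. Every LPS library lay far below every PBS library, and the LPS libraries lay close together.

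Complex I in the kidney held the largest changes among well-measured members. Ndufb10 (chr17:24722060-24724478) read 454, 515, 536 and 466 in PBS mice, 178, 211, 186 and 180 in LPS mice, and 290, 262, 289 and 321 in TNFKO LPS mice. The 3 groups did not overlap, and the TNFKO LPS libraries lay between the others. The LPS change was -1.38 (SE 0.09, adjusted p = 3.8e-12) and the TNFKO LPS against LPS difference 0.62 (SE 0.09, adjusted p = 1.6e-05; limma). Ndufv3 showed the same order, with 371 to 412 in PBS, 148, 150, 170 and 153 in LPS, and 221, 244, 262 and 262 in TNFKO LPS mice. Ndufa6, a subunit where the NADH-oxidising arm meets the membrane arm, read 204, 225, 214 and 212, then 90.1, 111, 91.7 and 91.4, then 177, 148, 146 and 189. Its TNFKO LPS libraries were again above every LPS library and below every PBS library. The LPS changes were -1.32 for Ndufv3 and -1.15 for Ndufa6, each with an SE of 0.09 to 0.10.

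The other kidney complexes moved the same way after LPS, with member medians of -0.84 in complex II, -0.72 in complex III, -0.56 in complex IV and -0.74 in complex V, against -0.75 in complex I. Sdhb, the iron-sulfur subunit of complex II, read 391, 431, 429 and 382 in PBS mice, 185, 212, 219 and 219 in LPS mice and 253, 262, 237 and 292 in TNFKO LPS mice (LPS change -0.97, SE 0.09). All 4 LPS libraries were lowest. Uqcrc1, a core subunit of complex III, changed by -0.55 (SE 0.10) and Uqcrfs1, its Rieske iron-sulfur protein, by -0.58 (SE 0.08). Cox4i1, the widely expressed form of the largest nuclear-encoded subunit of complex IV, read 1024, 1102, 1094 and 1046 in PBS, 784, 779, 826 and 852 in LPS, and 809, 873, 833 and 913 in TNFKO LPS mice. Its PBS libraries stood apart while the 2 groups given LPS overlapped (LPS change -0.40, SE 0.07; TNFKO LPS against LPS 0.08, adjusted p = 0.48; limma). Cox5a, also of complex IV, fell further, by 0.99 (SE 0.09). Atp5k, a dimer-zone subunit of complex V, read 705, 757, 792 and 693, then 370, 357, 345 and 329, then 438, 415, 437 and 442. The 3 groups of Atp5k libraries were separate, and its LPS change was -1.07 (SE 0.08).

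**Figure D3:**
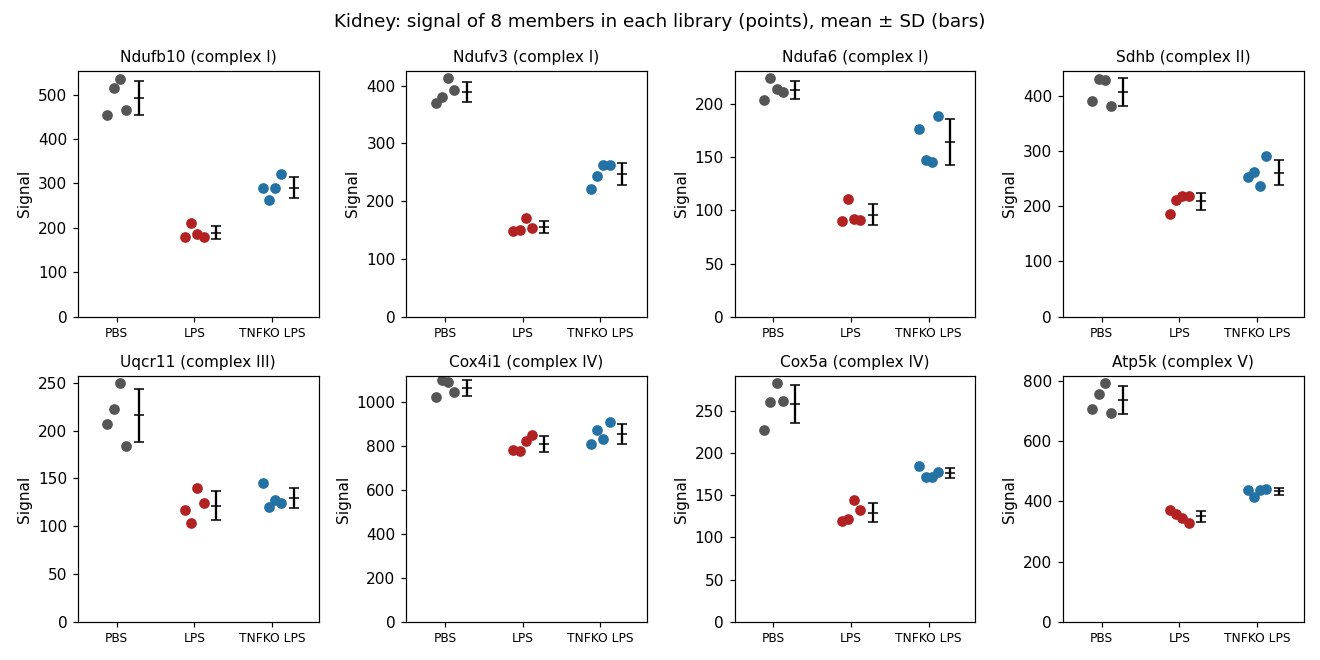
Kidney signal of 8 members in each library (points; PBS grey, LPS red, TNFKO LPS blue) with mean ± SD (bars, n = 4 mice). For Ndufb10, Ndufv3, Ndufa6, Sdhb, Cox5a and Atp5k the TNFKO LPS libraries lie above all LPS libraries, while for Cox4i1 and Uqcr11 both groups given LPS overlap.

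Proximal tubule markers moved with the kidney change: 8 of 8 tested were lower after LPS, with a summed signal of 14495 to 16946 in PBS, 5455 to 8323 in LPS and 7507 to 8255 in TNFKO LPS mice. None of them was at 0, and their part in the result was not tested.

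In liver 67 of 83 members fell and none rose after LPS, where 13.5% of all genes were lower and 11.6% higher, with a member median of -0.58 against 0.06. By complex the counts were 35 of 39 in complex I (median -0.68), 4 of 4 in complex II (-0.83), 6 of 8 in complex III (-0.64), 8 of 15 in complex IV (-0.29) and 14 of 17 in complex V (-0.51). Ndufa6 read 204, 212, 201 and 212 in PBS mice, 79, 99.5, 68.8 and 73.8 in LPS mice and 132, 121, 127 and 132 in TNFKO LPS mice. The groups were separate, with TNFKO LPS libraries in between (LPS change -1.37, SE 0.13, adjusted p = 9.1e-10; limma). Ndufb10 fell by 1.23 (SE 0.12), Sdhb by 0.85 (SE 0.12) and Sdhd by 0.85 (SE 0.10). The catalytic flavoprotein Sdha read 408, 484, 427 and 390 in PBS and 234, 263, 229 and 249 in LPS livers, with no overlap (LPS change -0.80, SE 0.11).

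Complex IV genes changed less in liver. Cox4i1 read 690, 654, 667 and 621 in PBS and 526, 515, 539 and 576 in LPS mice. The groups were apart, but the change was -0.29 (SE 0.09, adjusted p = 0.018; limma). Cox7c (-0.29), Cox5b (-0.28) and Cox7a2l (0.22) did not pass. The ratio of summed complex IV to complex I signal was 0.607, 0.604, 0.610 and 0.608 in PBS livers, 0.753, 0.668, 0.788 and 0.722 in LPS livers and 0.653, 0.669, 0.674 and 0.631 in TNFKO LPS livers. All LPS livers and all TNFKO LPS livers were above all PBS livers. These ratios keep Ndufa4 in the complex I sum, by its symbol. Its liver change after LPS was -0.68, and ratios with it in complex IV were not calculated. In kidney the same ratio was 0.750 to 0.772 in PBS, 0.799 to 0.857 in LPS and 0.745 to 0.762 in TNFKO LPS mice, so only the LPS group stood apart from PBS. PBS and LPS libraries were also separate, with LPS higher, in thymus, lung, white fat and brown fat, and overlapped in the other 9 tissues. Hepatocyte markers moved with the liver change, 8 of 9 being lower, with a summed signal of 214705 to 239290 in PBS, 91643 to 129433 in LPS and 101336 to 132415 in TNFKO LPS mice. No hepatocyte marker was at 0, and the part of these markers in the result was not tested.

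**Figure D4:**
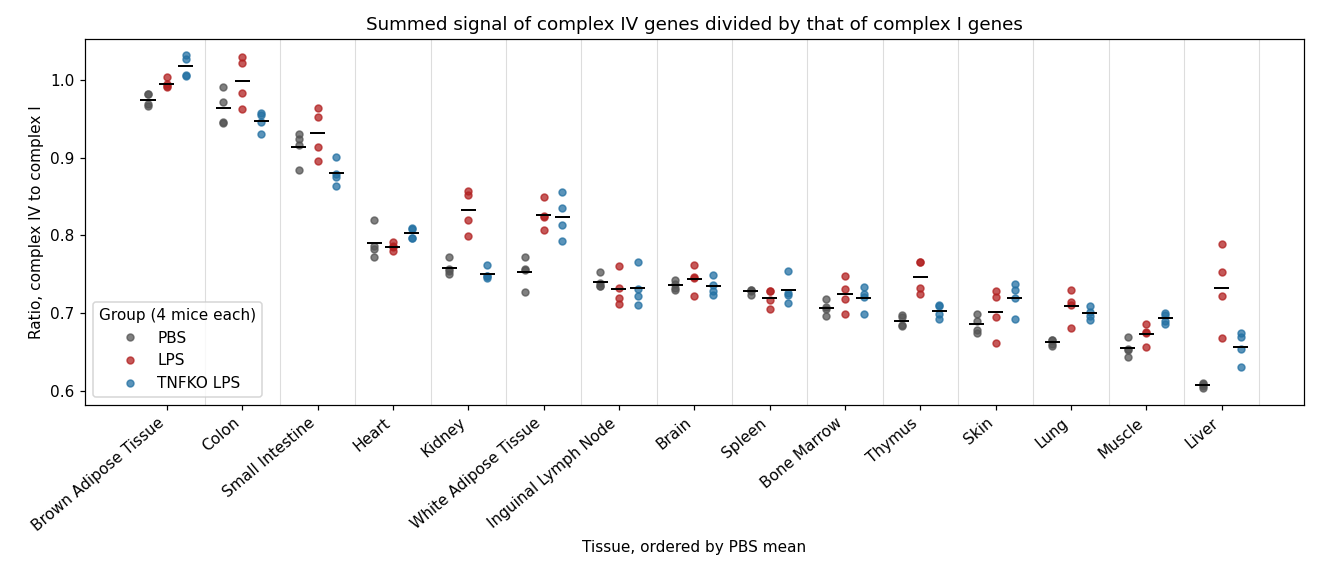
Ratio of summed complex IV to complex I signal by tissue, each point 1 library (PBS grey, LPS red, TNFKO LPS blue) and each black line a group mean. The complex I sum includes Ndufa4. Liver libraries were at 0.604 to 0.610 in PBS mice and at 0.668 to 0.788 in LPS mice, while most tissues overlapped.

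Brown fat lost signal in 72 of 83 members after LPS, with 1 higher, where 9.28% of all genes were lower and 9.09% higher, and the member median was -0.49 against 0.06. All 4 complex II genes fell, with 36 of 39 in complex I, 6 of 8 in complex III, 13 of 15 in complex IV and 13 of 17 in complex V. Cox8b, the brown fat and muscle isoform, read 2490, 3730, 4284 and 4488 in PBS mice, 1860, 1689, 1679 and 1830 in LPS mice, and 1998, 2280, 2240 and 2402 in TNFKO LPS mice. PBS mouse 1 was the lowest of its group but stood above all LPS libraries, and the change was -1.05 (SE 0.14, adjusted p = 7.8e-06; limma). Cox7a1 fell by 0.71 (SE 0.12), Atp5k by 0.86 (SE 0.13) and Ndufs7, an iron-sulfur subunit of complex I, by 0.94 (SE 0.13). The 4 complex V genes that did not pass were the c subunit genes Atp5g1 (0.27), Atp5g2 (-0.33) and Atp5g3 (0.26), and Atp5s (-0.63).

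The only member that rose in brown fat was the muscle isoform Cox6a2. It read 50.5, 54, 49 and 63.1 in PBS mice and 92.2, 53.3, 158 and 144 in LPS mice. Mice 7 and 8 were highest and mouse 6 lay within the PBS range (change 0.92, SE 0.29, adjusted p = 0.032; limma). Skeletal muscle fibre markers followed the same libraries: 8 of 9 were higher after LPS, and their sum was 0.775 to 2.10% of its mean in PBS muscle in PBS mice and 2.53, 1.43, 6.52 and 6.47% in LPS mice 5 to 8. Without mice 7 and 8 the Cox6a2 change was 0.37 (adjusted p = 0.55; limma). That choice was made after the data were seen. These mice had the highest Cox6a2 values, so a smaller change was bound to follow and is no test of its source. Cox6a2 also missed the threshold without any single 1 of mice 2, 3, 5, 7 or 8. Brown adipocyte markers fell in 6 of 7 cases, with sums of 10924 to 18830 in PBS, 4962 to 11531 in LPS and 7202 to 12261 in TNFKO LPS mice. That list holds Cox8b itself, and its part in the other changes was not tested.

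In heart, where the genes are highest, 65 of 83 members fell and none rose, where 12.3% of all genes were lower and 9.83% higher. The steps were smaller than in kidney or liver, with a member median of -0.27 against -0.06. Counts were 30 of 39 in complex I, 2 of 4 in complex II, 8 of 8 in complex III, 13 of 15 in complex IV and 12 of 17 in complex V. Ndufv3 read 1101, 1102, 1070 and 1168 in PBS, 853, 824, 787 and 837 in LPS, and 765, 788, 826 and 786 in TNFKO LPS hearts. Both groups given LPS were below PBS and overlapped each other (LPS change -0.43, SE 0.07). Ndufs7 fell by 0.52 (SE 0.08) and Cox7a2l by 0.51 (SE 0.08). Sdha at -0.06 and Atp5b at -0.07 did not pass. Cardiomyocyte markers were lower for 5 of 8, with sums of 37242 to 38523 in PBS, 23364 to 26285 in LPS and 18756 to 22062 in TNFKO LPS mice; their part was not tested.

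In small intestine 44 of 83 members fell and none rose after LPS (13.4% of all genes lower and 9.92% higher; member median -0.35 against 0.00). Cox7a1 had the largest change, from 229, 276, 228 and 247 in PBS mice to 104, 96.6, 57.1 and 86.3 in LPS mice, with 83.1, 74.3, 71.1 and 93.1 in TNFKO LPS mice. All libraries of mice given LPS were under every PBS library, and the change was -1.53 (SE 0.15, adjusted p = 1.3e-07; limma). Its share of the isoform set went from a mean of 24.5% in PBS to 10.5 to 14.1% in LPS mice. Atp5j2 and Atp5k each fell by 0.69 (SE 0.11). Enterocyte markers were lower for 5 of 8, with sums of 11623 to 15971 in PBS and 1884 to 4929 in LPS mice, and their part was not tested. When every library was scaled to the same sum, the median of all intestinal genes moved by 0.14 and the count of lower members was 25.

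Thymus, inguinal lymph node, lung, muscle and bone marrow had fewer lower members and no higher ones. In thymus 28 of 82 fell (8.83% of all genes lower and 9.7% higher; median -0.25), led by Ndufa9 at -0.67 (SE 0.16), Ndufc1 at -0.64 (SE 0.11) and Ndufs5 at -0.56 (SE 0.14), all complex I subunits. All 6 thymocyte markers tested were lower too, with sums of 2069 to 2170 in PBS and 760 to 1213 in LPS mice. In the inguinal lymph node 26 of 83 fell (12.6% of all genes lower and 9.97% higher; median -0.26). The lymph node count rested in part on PBS mouse 4 and was 8 without it. Proximal tubule markers in the PBS lymph nodes summed to 2.32 to 7.28% of their PBS kidney mean, most in mouse 4, against 0.524 to 0.705% in LPS lymph nodes. These marker shifts in thymus and lymph node were not tested as a source of the changes.

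In muscle 11 of 83 members were lower (5.76% of all genes lower and 6.72% higher, median -0.21), and in bone marrow 9 of 81 (12.3% of all genes lower and 10.6% higher, median -0.08). The bone marrow share, 11.1% of members, was below that of all genes. The muscle count was 3 without mouse 2 or without mouse 5 and 19 without mouse 7, and the bone marrow count was 4 without mouse 8. Muscle libraries of mice 5 and 6 were the low ones, with a summed member signal of 53584 and 55384 against 66487 and 65665 in mice 7 and 8. Skeletal muscle fibre markers were lowest in the same mice, with sums at 81.4, 76.8, 91.0 and 90.1% of their PBS mean in mice 5 to 8 against 91.2 to 105.5% in PBS mice, and 2 of 9 were lower; their part was not tested. In bone marrow Cox6a1 fell from 272, 279, 305 and 294 in PBS mice to 225, 207, 232 and 192 in LPS mice (-0.43, SE 0.08), with no overlap. Erythroid markers fell for 7 of 7 in bone marrow, with sums of 218076 to 239317 in PBS and 152306 to 174343 in LPS mice, and their part was not tested.

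In lung 14 of 83 members were lower, where 13.9% of all genes were lower and 11.7% higher, with a median of -0.15 against -0.06. The lower members made up 16.9%, close to the share of all genes. Cox4i2, the isoform of Cox4i1 known from lung, read 23.4, 21.5, 26.4 and 27.8 in PBS and 5.23, 11.7, 9.52 and 5.07 in LPS lungs. The groups were well apart (change -1.60, SE 0.26, adjusted p = 1.9e-05; limma). Ndufa4l2, a paralog of Ndufa4, read 22.5, 18.9, 20.6 and 14.5 in PBS and 7.84, 7.32, 5.71 and 4.22 in LPS lungs, also without overlap (-1.48, SE 0.27). Ndufa4l2 was lower as well in kidney (-1.72), muscle (-1.26), heart (-1.06) and skin, on few counts. The muscle call was lost without any 1 of mice 1, 4, 5 or 7. Neutrophil markers rose in lung for 10 of 11, with sums of 655 to 722 in PBS and 8518 to 10726 in LPS mice, and alveolar epithelial markers fell for 5 of 7; their part was not tested. The lung count was 23 when every library was scaled to the same sum.

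Spleen and colon held most of the rises. In spleen 11 of 82 members were higher and 2 lower after LPS, where 8.04% of all genes were higher and 7.75% lower, with a median of 0.04. The rises were in all 5 complexes: Ndufa12, Ndufb7 and Ndufs3, then Sdhd, then Uqcr10, Uqcrfs1 and Uqcrq, then Cox5b, then Atp5b, Atp5g2 and Atp5g3. Uqcrq, a small complex III subunit, read 142, 127, 148 and 152 in PBS and 264, 192, 182 and 200 in LPS spleens, with no overlap (0.54, SE 0.12, adjusted p = 0.00098; limma). Atp5b read 247, 240, 247 and 263 in PBS and 372, 340, 353 and 328 in LPS spleens, again apart (0.48, SE 0.10). Cox7a2l fell by 0.60 (SE 0.12), and Ndufa13, a complex I subunit also known as GRIM-19, was lower, at -0.47, with overlapping groups. The Ndufa13 call was lost with edgeR (adjusted p = 0.097), when only the 2 groups were fitted, and without any 1 of mice 1, 2, 3, 7 or 8.

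The spleen count was 5 without mouse 1, whose Ndufs3 value of 16.3 was low beside 48.6, 43 and 35.8 in the other PBS mice; without it Ndufs3 missed the threshold. T cell markers fell in spleen for 8 of 8 and B cell markers for 5 of 6, and neutrophil markers rose for 6 of 11. Their sums went from 479 to 610 to 225 to 295 for T cells, from 1818 to 2120 to 727 to 1259 for B cells, and from 725 to 832 to 1837 to 3013 for neutrophils, PBS against LPS, and their part was not tested. In colon 2 members rose, Uqcrq (0.36, SE 0.09) and Atp5g3 (0.27, SE 0.07), and 6 fell, where 9.45% of all genes were higher and 7.76% lower. Of the colon members 2.41% rose and 7.23% fell, so neither share was above that of all genes. Ndufb10 fell in colon by 0.43 (SE 0.10), Uqcrh by 0.37 (SE 0.10) and Cox7a1 by 0.40 (SE 0.13), and the Cox7a1 call was lost without any 1 of mice 1, 2, 5, 6 or 8.

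Skin, white fat and brain showed little. In skin Ndufa4l2 and Ndufv3 were lower, where 9.45% of all genes were higher and 8.46% lower, and neither passed without mouse 1 or without mouse 5. In white fat Ndufb10 alone fell, from 277, 279, 258 and 206 to 148, 164, 168 and 162 (-0.66, SE 0.12, adjusted p = 0.00056; limma), where 6.25% of all genes were lower and 7.49% higher. No member passed in brain, where 2.03% of all genes were lower and 2.32% higher. In brain 5 members were lower and none higher at an unadjusted p below 0.05 in limma. The shares of all genes above are at an adjusted p, and those at an unadjusted p were not counted. That count therefore has no share to be set against. At the adjusted threshold 5 members passed when only the PBS and LPS libraries were fitted, and 1 was lower with edgeR. Brain Ndufb10 read 227, 213, 220 and 216 in PBS and 187, 183, 182 and 188 in LPS mice, with no overlap (-0.24, adjusted p = 0.35; limma). The white fat count was 10 when every library was scaled to the same sum, and 4 without mouse 4.

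**Figure D5:**
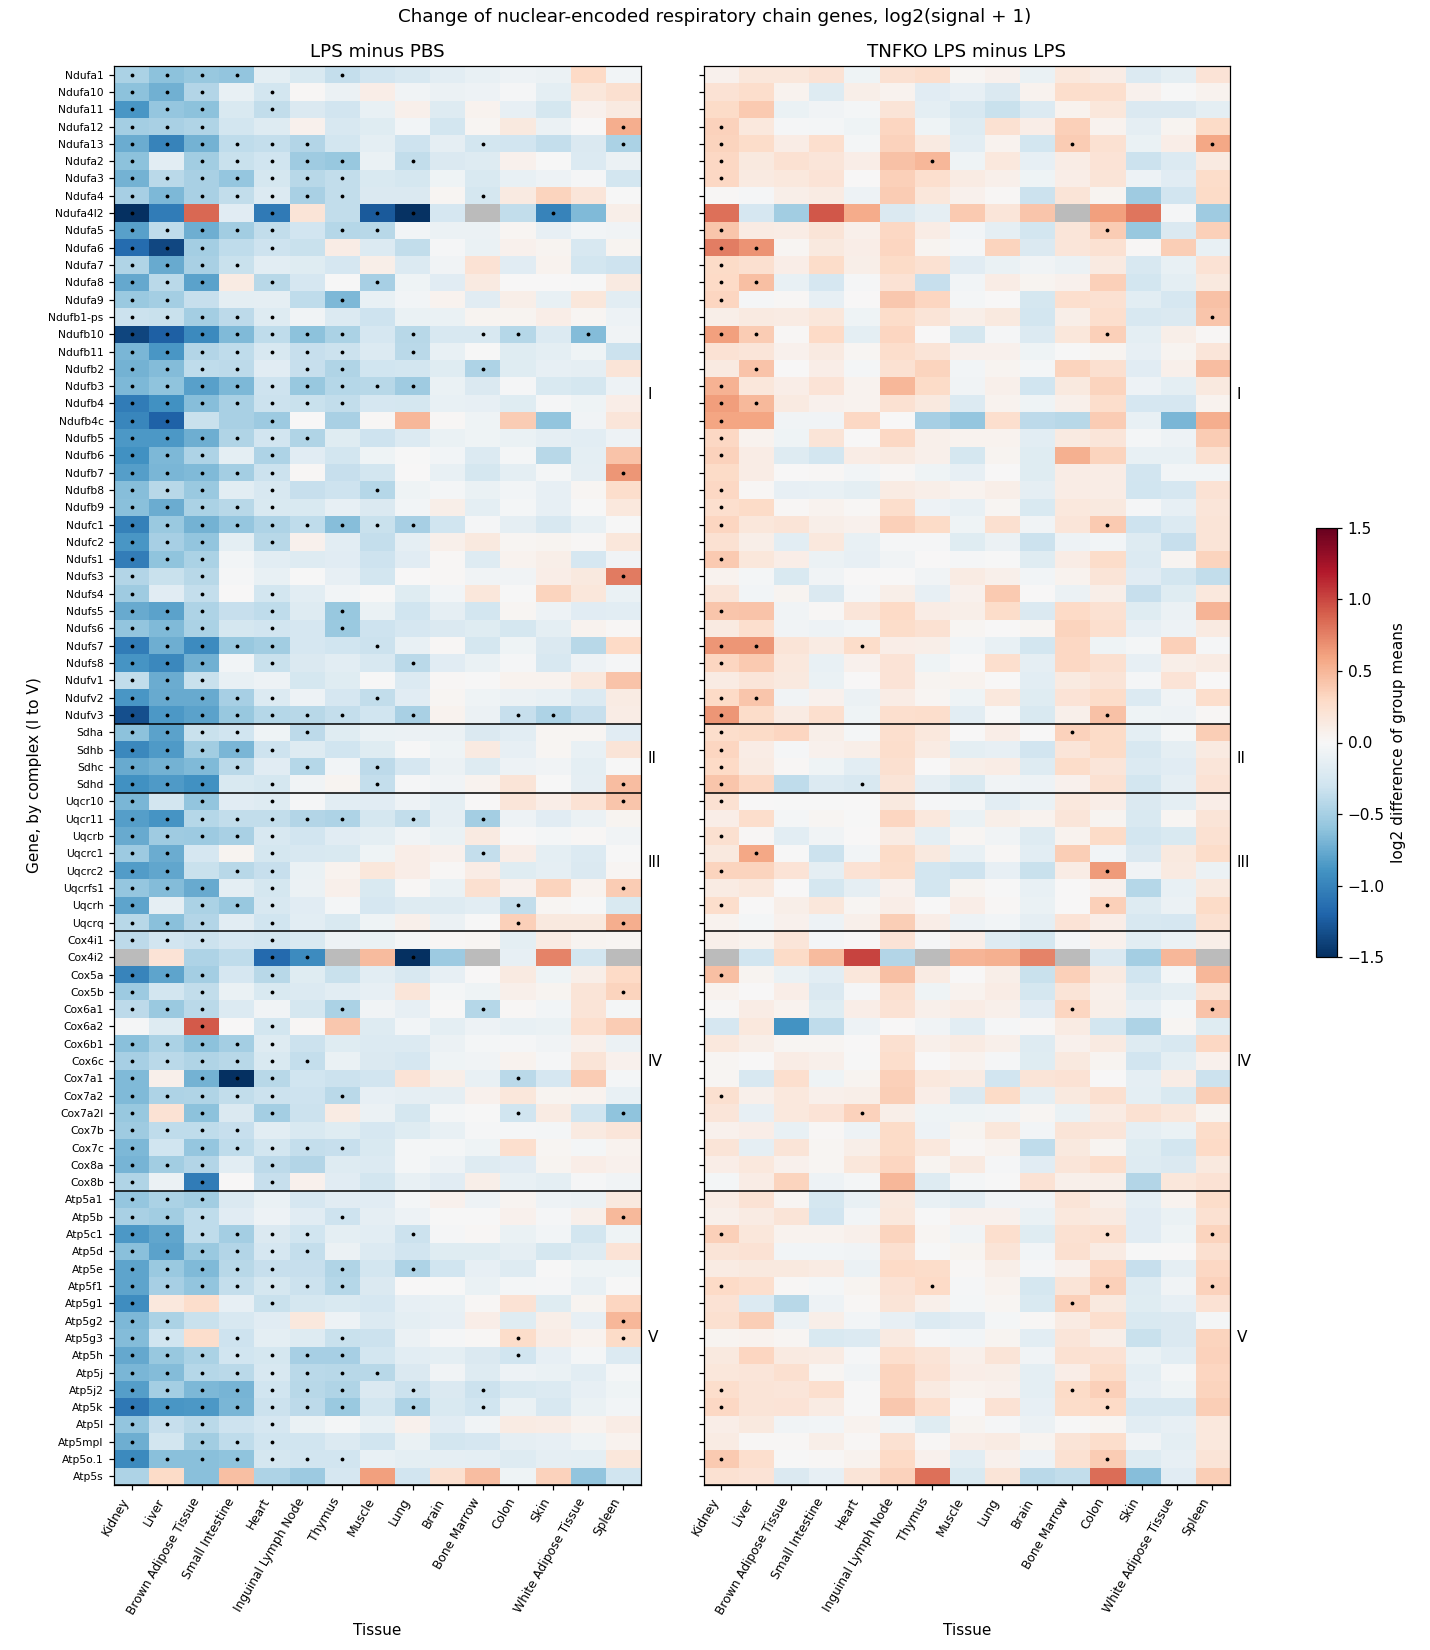
Difference in mean log2(signal + 1) for 82 members (rows, by complex) and tissue (columns, by member median), LPS minus PBS on the left and TNFKO LPS minus LPS on the right; black dots mark an adjusted p below 0.05 and grey cells were not tested. The left columns, from kidney to heart, are mostly blue in all 5 complexes (Cox6a2 in brown fat is an exception), and the kidney column of the right panel is red mainly in complexes I and II.

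Tissues differed in the LPS change. In a joint fit of all 180 libraries the change differed among tissues for 81 of 83 members, where 65.3% of all genes did so (limma moderated F, adjusted p below 0.05). Each tissue was then set against the mean of the other 14. Further up means a change above that mean, which need not be a rise. The kidney change was further down for 69 members and further up for none, where 9.28% of all genes were further down. The liver change was further down for 50 members and up for 1, Cox7a2l, where 13% of all genes were further down. Brown fat was further down for 38 and further up for 4, namely Ndufa4l2, Cox6a2, Atp5g1 and Atp5g3, where 6.79% and 11.1% of all genes were. Spleen was further up for 42 and down for 1, Cox7a2l, where 6.66% of all genes were further up. White fat was further up for 12 (3.75% of all genes), though no member was called higher there after LPS. The heart change was further down for 1 member, Cox7a2l, where 2.67% of all genes were.

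Single members showed which tissue stood apart most. Ndufv3 changed in kidney by 0.94 further down than the mean of the other tissues (difference -0.94, SE 0.12), and Ndufa6 in liver by -1.13 (SE 0.14) and in kidney by -0.89 (SE 0.14). Cox8b in brown fat differed by -0.93 (SE 0.18) and Cox7a1 in small intestine by -1.33 (SE 0.17). In spleen Ndufb7 stood 0.97 (SE 0.14) above the mean of the other tissues and Ndufs3 0.89 (SE 0.15). Each of these passed at an adjusted p below 0.05 over all genes in the limma contrast.

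TNFKO LPS mice were then compared with LPS mice, which asks what differed when mice with the targeted Tnf allele had the same challenge. Both comparisons use the same LPS libraries, so their values stand side by side and were not correlated. Over 1240 tests 73 were higher and 2 lower in TNFKO LPS mice, in 7 tissues, and 8 tissues had no call. The share of all genes higher ran from 0.55% in brain to 13.2% in kidney. The share lower ran from 0.467% in brain to 6.82% in kidney. Of the 73, kidney held 39. There, 39 of 82 members were higher and none lower, where 13.2% of all genes were higher and 6.82% lower, with a member median of 0.24 against 0.05. The calls were unequal among complexes: 24 of 39 in complex I (median 0.31), 4 of 4 in complex II (0.31), 4 of 8 in complex III (0.19), 2 of 14 in complex IV (0.07) and 5 of 17 in complex V (0.20). The count was 26 without mouse 12, its lowest when any single mouse was left out.

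The kidney members with the largest differences were Ndufa6 (0.77, SE 0.10), Ndufv3 (0.66, SE 0.09) and Ndufs7 (0.66, SE 0.12). Ndufs7 read 188, 208, 210 and 176 in PBS, 88.1, 125, 87.3 and 81.3 in LPS, and 150, 141, 143 and 161 in TNFKO LPS mice, and the 3 groups were separate. In complex II the differences were 0.26 for Sdha, 0.32 for Sdhb, 0.30 for Sdhc and 0.41 for Sdhd. In complex IV Cox5a (119, 122, 144 and 132 in LPS; 184, 172, 172 and 177 in TNFKO LPS mice) and Cox7a2 passed. The summed kidney signal of TNFKO LPS mice was 29186, 29942, 29954 and 31494, above every LPS library and below every PBS library. Proximal tubule markers differed less between these groups, with 3 of 8 higher and 1 lower and overlapping sums.

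In liver 9 of 83 members were higher in TNFKO LPS mice and none lower, where 5.96% of all genes were higher and 3.43% lower (median 0.16 against 0.02). Of the 9, 8 were complex I genes, among them Ndufa6, Ndufb10 and Ndufs7. Ndufa6 differed by 0.68 (SE 0.13, adjusted p = 0.00048; limma) and Ndufs7 by 0.66 (SE 0.14). The ninth, Uqcrc1 of complex III, read 148, 172, 180 and 189 in PBS, 102, 94.2, 125 and 91 in LPS, and 150, 155, 159 and 151 in TNFKO LPS mice. Its TNFKO LPS libraries were inside the PBS range and above every LPS library (0.58, SE 0.13). The liver count was 3 without mouse 5 or mouse 9 and 5 with edgeR.

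In colon 11 of 83 members were higher and none lower (2.51% of all genes higher and 1.31% lower; median 0.20 against 0.04), in complexes I, III and V. Uqcrc2, a core complex III subunit, read 67.4, 75.8, 51.4 and 61.7 in PBS, 59.8, 58.5, 43.6 and 63.8 in LPS, and 83.1, 87.8, 97.4 and 82.3 in TNFKO LPS mice. The TNFKO LPS libraries were above those of both other groups (0.64, SE 0.15, adjusted p = 0.0088; limma). Atp5f1, a peripheral stalk subunit of ATP synthase, read 574, 634, 611 and 615 in LPS and 859, 765, 774 and 733 in TNFKO LPS mice, also above all PBS values of 606 to 655. Enterocyte markers in colon, 2 of 8 higher and 2 lower, had sums of 3779 to 6290 in LPS and 1827 to 3928 in TNFKO LPS mice, and their part was not tested. The colon count was 3 without mouse 7 or mouse 9, and 6 under median-of-ratios scaling. Atp5f1 was higher in TNFKO LPS mice in 4 tissues, more than any other member.

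Smaller sets passed in spleen, bone marrow, thymus and heart. In spleen Ndufa13, Ndufb1-ps, Cox6a1, Atp5c1 and Atp5f1 were higher (2.56% of all genes higher and 1.59% lower). Cox6a1 read 268, 273, 267 and 294 in PBS, 282, 286, 276 and 234 in LPS, and 399, 326, 368 and 358 in TNFKO LPS spleens, the last above all others (0.43, SE 0.10). In bone marrow Ndufa13, Sdha, Cox6a1, Atp5g1 and Atp5j2 were higher (2.57% of all genes higher and 3.55% lower). Both counts fell to 0 without LPS mouse 8. The bone marrow count was also 0 without mice 10 and 11, whose proximal tubule markers summed to 4.45 and 3.55% of the PBS kidney mean. These sums were 1.16 and 1.02% in TNFKO LPS mice 9 and 12, 1.03 to 2.28% in LPS and 0.582 to 0.712% in PBS bone marrow. The choice of mice 10 and 11 was made after the data were seen. The bone marrow count was 27 when every library was scaled to the same sum. In thymus Ndufa2 (0.49, SE 0.14) and Atp5f1 (0.30, SE 0.09) were higher (2.3% of all genes higher and 2.16% lower), and neither passed in every fit that left out a mouse. They made up 2.44% of the thymus members, close to the share of all genes. Thymocyte markers were higher for 5 of 6, with sums of 760 to 1213 in LPS and 1316 to 1665 in TNFKO LPS mice, and their part was not tested.

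In heart Cox7a2l (0.35, SE 0.08) and Ndufs7 (0.28, SE 0.08) were higher and Sdhd (-0.24, SE 0.07) was lower, where 3.32% of all genes were higher and 2.35% lower. Of the heart members 2.41% were higher, which was not above the share of all genes. The share of members lower was close to that of all genes. Cox7a2l read 442, 449, 400 and 421 in PBS, 306, 320, 269 and 308 in LPS, and 371, 379, 394 and 388 in TNFKO LPS hearts, and the groups were separate. The Sdhd call was lost when every library was scaled to the same sum, when only the 2 groups were fitted, and without several single mice. The summed heart signal of 82185 to 85920 in TNFKO LPS mice overlapped the 82434 to 87619 of LPS mice. No member passed in lymph node (median 0.24), skin (-0.19), brown fat (0.04), white fat (-0.12), small intestine (0.02), lung (0.06), muscle (-0.02) or brain (-0.14). The brain median was -0.03 without TNFKO LPS mouse 10, whose library of 473854 counts had neuron and glia markers at 70.2% of their PBS mean, against 93.4 to 104.2% in the other brain libraries. At an unadjusted p below 0.05 in limma, 35 lymph node members were higher and none lower. In brain 12 were lower and none higher, and in skin 11 were lower and 1 higher. Shares of all genes at that unadjusted threshold were not counted. Those given below are at an adjusted p below 0.05 and are no measure for these counts. With edgeR 2 members were lower in small intestine, and 2 were lower and 1 higher in brown fat. Among all genes, 1.72% were higher and 1.4% lower in lymph node, 1.43% and 1.36% in skin, 1.7% and 1.23% in brown fat, and 0.79% and 2.07% in white fat. The same shares were 4.47% and 2.65% in small intestine, 3.71% and 2.28% in lung, 1.82% and 2.16% in muscle, and 0.55% and 0.467% in brain. The difference between TNFKO LPS and LPS mice varied among tissues for 54 of 83 members, where 25.6% of all genes did so (limma moderated F).

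Partner genes of the pathway were counted from lists. The 13 subunits encoded in mitochondrial DNA were lower after LPS in kidney for 13 of 13, in liver, colon and lymph node for 9, in small intestine for 6 and in spleen, heart, muscle and brown fat for 5. The shares of all genes lower were 21.9% in kidney, 13.5% in liver, 7.76% in colon, 12.6% in lymph node, 13.4% in small intestine, 7.75% in spleen, 12.3% in heart, 5.76% in muscle and 9.28% in brown fat. In kidney mt-Cytb, the cytochrome b of complex III, read 32228, 34024, 36434 and 30850 in PBS, 19478, 18112, 19746 and 20601 in LPS, and 18126, 18421, 18896 and 20498 in TNFKO LPS mice. Both groups given LPS were below PBS and overlapped each other. In TNFKO LPS kidneys 39 of 82 nuclear-encoded members and 3 of 13 mitochondrially encoded genes were higher than in LPS kidneys (13.2% of all genes). In heart 9 of the 13 were lower in TNFKO LPS than in LPS mice (2.35% of all genes), with sums of 158433 to 198507 against 214768 to 234796, while the nuclear sums overlapped. Library sums were also lower in TNFKO LPS hearts. All mitochondrial genes measured, a set not limited to the 13, made up 22.9 to 24.5% of the signal in LPS hearts. TNFKO LPS mouse 11 lay in that range at 23.1%, and the other TNFKO LPS hearts were at 19.0 to 19.5%.

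Regulators of mitochondrial biogenesis were counted over 17 genes. In kidney 5 were lower after LPS and 2 higher (21.9% and 16.2% of all genes), and 4 were higher in TNFKO LPS mice (13.2% of all genes). For a list of 17 genes the LPS counts lie near those shares. The kidney genes described next fell after LPS, and the 2 that rose are not described. Ppargc1a, which encodes PGC-1α, read 99.1, 104, 113 and 88.3 in PBS, 23.3, 59.6, 16.9 and 20.3 in LPS, and 71, 85.4, 119 and 96.6 in TNFKO LPS kidneys. Mouse 6 was the highest LPS library, and the TNFKO LPS libraries overlapped PBS (LPS change -1.89, SE 0.24; TNFKO LPS against LPS 1.76, SE 0.24). Esrra, which encodes the nuclear receptor ERRα, read 43.3, 46.6, 52.1 and 45.6, then 19.3, 17.9, 15.4 and 17.5, then 34.4, 34.5, 37.4 and 36.9. Its 3 groups were separate, with TNFKO LPS between the others. In heart Ppargc1a fell by 1.78 (SE 0.19) and was 1.13 (SE 0.19) higher in TNFKO LPS mice, while 2 of 83 members were higher there. In liver Ppargc1a was at 0.16 after LPS and did not pass. Any link between these genes and the members was not tested.

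Other mitochondrial lists were counted in the same way. The shares of all genes lower after LPS were 21.9% in kidney, 13.5% in liver, 12.3% in heart and 9.28% in brown fat. The shares higher were 9.45% in colon, 8.04% in spleen, 16.2% in kidney and 11.6% in liver, and 13.2% were higher and 6.82% lower in TNFKO LPS kidneys. Of 18 tricarboxylic acid cycle genes, 17 were lower after LPS in brown fat, 15 in kidney and 10 in liver, with 1 higher in liver. Of 41 assembly factors, 27 were lower and 1 higher in kidney, and 18 were lower in brown fat, 18 in heart and 11 in liver. In TNFKO LPS kidneys 21 of the 41 were higher and 1 lower than in LPS kidneys. Of 19 import and membrane organisation genes, 7 rose and none fell in colon and 6 rose and none fell in spleen, while 13 fell in brown fat. Of 11 carrier, porin and uncoupling genes, 6 fell and 1 rose in kidney. Of 9 chain genes outside the symbol rule, 8 fell and 1 rose in kidney, and Ndufab1, the acyl carrier protein held in complex I, fell there by 1.06 (SE 0.09).

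The gene that rose was AA467197, for which RefSeq gives the synonym Nmes1, a paralog of the member Ndufa4. In lung it read 7.52, 12.6, 8.36 and 13.3 in PBS, 232, 71.8, 470 and 277 in LPS, and 86.1, 111, 88.7 and 80.6 in TNFKO LPS mice. All libraries of mice given LPS were above PBS, and mouse 6 was the lowest of the LPS group (LPS change 4.28, SE 0.32, adjusted p = 4.6e-11; limma). In kidney it read 4.89, 8.22, 4.45 and 11.4 in PBS, 80.7, 43.6, 111 and 88.7 in LPS, and 23.9, 22.8, 24.1 and 24.3 in TNFKO LPS mice, and the groups were separate. Spleen showed the same order, with changes of 3.33 (SE 0.27) after LPS and -1.72 (SE 0.27) between TNFKO LPS and LPS mice. Ndufa4 itself was lower after LPS in 8 tissues.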

How the data were processed

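Polyadenylated RNA of 180 libraries was profiled by 3′ tag sequencing with sample barcodes and 10-bp molecular identifiers, per the labels' protocols. The authors deposited 1 table of signal values per gene and library, named for CPM. The submitters' processing notes name FastQC, MultiQC, edgeR and mm10. The aligner was not given in the sources used here. Whole counts were recovered from the signal for at least 99.99% of values within 0.1 count, with 311128 to 2573806 counts per library, and this number limits the precision of low genes.

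A gene was tested in a tissue where 4 or more of the 12 libraries reached a signal of 1, with limma 3.58.1 (trend, R 4.3.3) on log2(signal + 1), with Benjamini-Hochberg adjustment over all genes of a tissue and comparison at 0.05. This scale understates changes of low genes. A joint fit of 45 groups tested differences among tissues. The script was tested on simulated data. Alternatives were edgeR 4.0.16 on recovered counts, a pseudocount of 0.25, no filter, other scalings, 2-group fits, mouse as a block in the joint fit, and leaving out each mouse. Groups compared within a tissue share no mouse. The same 12 mice gave all tissues, so mouse numbers pair libraries across tissues: the median correlation of deviations was 0.0111 over 1260 same-mouse pairs and -0.00366 over 3780 pairs of other mice.

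Named genes were members called in the most tissues, up to 3 per tissue and direction by size of change without overlap (mean signal at least 10), members against the direction of their tissue, and isoform sets. Others were named by their role after their values were seen. Positions are from GENCODE M21 and promoters from RefSeq. Members, lists and markers were chosen with earlier results of these data known. Results of 1 member are not reported here, though it is included in the counts and sums.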

Additional observations from a re-analysis of the deposited data

Results flagged for a closer look

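The LPS change differed among tissues for 81 members and the TNFKO LPS against LPS difference for 54, in a test of the difference itself. Set against the mean of the other 14 tissues, the LPS change was further down for 69 members in kidney, 50 in liver and 38 in brown fat, and further up for 42 in spleen and 12 in white fat. Further up is relative to that mean: against PBS, 11 members were called higher in spleen and none in white fat.

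The summed nuclear-encoded and the summed mitochondrially encoded signal were each checked in 45 groups of 4 libraries, 90 checks in all, with Dixon's 95% test of the gap to the nearest library. A library stood far from its group in 3, all for the nuclear-encoded sum. Chance gives such a gap in about 1 check in 20. They were TNFKO LPS mouse 10 in lung at 12867, LPS mouse 7 in brown fat at 57701 and PBS mouse 2 in bone marrow at 11810.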

How the results depend on the processing

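No named change that passed the threshold reversed its direction under any alternative run. Medians near 0 did change sign when 1 mouse was left out: after LPS in skin (-0.12 to 0.04) and white fat (-0.11 to 0.01), and between the groups given LPS in heart (-0.01 to 0.02), lung (-0.0019 to 0.08), muscle (-0.08 to 0.05) and small intestine (-0.05 to 0.06). With each library scaled to the same sum the median between the groups given LPS was -0.10 in small intestine and 0.02 in white fat, and it was under 0 in heart and small intestine with edgeR and with median-of-ratios scaling. The counts of lower members in kidney, liver, brown fat and heart after LPS stayed within 1.5 times under every alternative run. Small counts moved, and the cause was not tested. With only the 2 groups compared in the fit, LPS lowered 5 members in brain and 1 in spleen, and TNFKO LPS mice had 3 higher members in bone marrow, 2 in brown fat, 7 in colon, 1 in heart and 3 in spleen, with 0 lower in heart and 0 over all tissues. With each library scaled to the same sum, the lower members after LPS were 5 in bone marrow, 10 in colon, 23 in lung, 4 in skin, 25 in small intestine, 4 in spleen and 10 in white fat, and the higher ones 2 in brown fat and 1 in liver. In TNFKO LPS mice that scaling gave 27 higher in bone marrow, 1 in brown fat, 6 in heart, 1 in lung and 3 in spleen, and 1 lower in brown fat, 9 in small intestine, 0 in heart and 10 over all tissues. It shifted the median of all genes by -0.16 in white fat and 0.14 in small intestine after LPS, and by 0.13 in white fat, -0.11 in small intestine and 0.10 in heart between the groups given LPS. With edgeR, LPS lowered 5 members in bone marrow, 1 in brain and 1 in spleen and raised 2 in brown fat. TNFKO LPS mice then had 1 higher in brown fat, 1 in heart, 5 in liver and 2 in spleen, and 2 lower in brown fat, 2 in small intestine and 6 over all tissues. Median-of-ratios scaling gave 1 higher in brown fat, 6 in colon, 1 in heart and 3 in spleen, and 1 lower in brown fat, 1 in muscle, 2 in small intestine and 7 over all tissues. Under it, against the other 14 tissues, 9 members were further up in brain, 2 in muscle and 1 in small intestine, and 5 were further down in thymus and 0 in heart. No filter, or a pseudocount of 0.25, left 1 higher member in TNFKO LPS heart. Without mice 10 and 11 there were 0 in bone marrow. With mouse as a replicate block in the joint fit, 81 and 55 members differed among tissues and 2 were further up in brain; no other count moved by over 1.5 times.

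Leaving out 1 mouse at a time gave, for members lower after LPS, 80 to 81 in kidney, 58 to 68 in liver, 63 to 76 in brown fat, 58 to 64 in heart, 30 to 47 in small intestine, 21 to 26 in thymus, 8 to 32 in lymph node, 10 to 14 in lung, 3 to 19 in muscle, 4 to 12 in bone marrow, 3 to 6 in colon, 1 to 4 in spleen, 0 to 2 in skin and 1 to 4 in white fat. Over all tissues this gave 368 to 405 lower and 9 to 16 higher. Higher members were 5 to 11 in spleen, 2 to 3 in colon, 1 to 2 in skin, and 0 to 1 in brown fat, small intestine and thymus. For members higher in TNFKO LPS than in LPS mice it gave 26 to 40 in kidney, 3 to 16 in colon, 3 to 14 in liver, 0 to 9 in spleen, 0 to 13 in bone marrow, 0 to 5 in lymph node, 1 to 2 in heart, and 0 to 1 in thymus, skin and small intestine, with 43 to 96 over all tissues. Lower members were 0 to 2 in heart, brain, brown fat and small intestine, 0 to 4 in skin, 0 to 1 in muscle and 0 to 7 over all tissues. Depth limits genes such as Ndufa4l2 and Cox4i2, which were near the detection floor in several tissues.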
